A study of Gallus gallus with 60 samples.

Results

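AGMO, ELOVL5 and ACSL4, 3 enzymes of ether lipid and polyunsaturated fatty acid metabolism, were followed in the cerebrum of 2 commercial layer lines. They were chosen by gene name, with their difference between the lines in these hens already known, and they are 3 of the 8203 genes that could be named in the deposited table and of the 7337 with a row above the expression limit. Each had 1 row, and all 3 rows were above that limit. ELOVL5 and ACSL4 carried their symbol in the platform annotation. The row of AGMO had no symbol there and took its name from the study's own supplementary list, which gives AGMO for 3 of the 16 probe sets in that row. That list holds the probe sets that the study found to differ between the lines by a doubling or more, so AGMO could be named only through its line difference.

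Ether lipids are glycerolipids in which a fatty alcohol is bound to glycerol by an ether bond, and plasmalogens, the form with a vinyl ether bond, are abundant in brain membranes and myelin. AGMO, alkylglycerol monooxygenase, is the enzyme known to cleave the ether bond of alkylglycerols, and it needs tetrahydrobiopterin as a cofactor. ELOVL5 lengthens polyunsaturated fatty acids in the endoplasmic reticulum, a step on the way to arachidonate and docosahexaenoate, and ACSL4 couples long polyunsaturated fatty acids, with a preference for arachidonate, to coenzyme A so that they can enter phospholipids.

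The hens were Lohmann Selected Leghorn (LSL), which lay white eggs, and Lohmann Brown (LB), which lay brown eggs, aged 65 to 68 weeks and kept in small group housing with 36 or 54 hens in a compartment. Each of 60 hens gave 1 array, with 16 LSL and 14 LB hens from groups of 36 and 14 LSL and 16 LB hens from groups of 54. The labels place the sample in the posterior right part of the cerebrum, taken without meninges, whereas the study's methods name the left and the right side. By those methods the hens were picked as stressed or unstressed birds, a state that the labels do not give, and several came from 1 compartment, which held 1 line and 1 group size, so that p-values over hens may be too small.

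Values are RMA expression values on the log2 scale, where a difference of 1 is a doubling, and the array medians lay between 6.863 and 6.864. After the group means were removed, the arrays fell into a set of 42 and a set of 18 hens on the first principal component, which held 24.5% of the remaining variation, and both sets contained all 4 groups. Neuron markers were well above the expression limit, with SNAP25 at 12.19 in both lines, and so were the astrocyte marker AQP4 at 11.32 in LSL and the myelin marker MBP at 12.22 in LSL. Of 27 tested markers of neurons, glia, vessels, meninges, choroid plexus and blood, 3 differed between the lines by limma's adjusted p over 7337 genes: the GABA-producing enzyme GAD2 was lower in LSL by 0.18, MBP was higher by 0.10 and KL, a choroid plexus gene, was higher by 0.32 (adjusted p = 0.0357, 0.0184 and 0.00087). Over all 7337 genes 24.8% differed. With pairs of hens of consecutive numbers as a random block, KL kept its call and GAD2 and MBP did not (adjusted p = 0.00901, 0.0687 and 0.0718). With the array sets as a block all of them passed. So did the endothelial markers CLDN5, higher in LSL, and PECAM1, lower, and the microglia marker CSF1R, lower (limma adjusted p = 0.0346, 0.0477 and 0.0423). In that model 2387 of all 7337 genes passed. The summed linear level of the 2 tested oligodendrocyte markers ran from 4194 to 6465 in LSL and from 3923 to 5631 in LB, and that of the 4 tested markers of meninges and choroid plexus from 655 to 1121 in LSL and from 552 to 913 in LB. Their part in the line differences below was not tested. In whole tissue, fewer cells of a type and less RNA per cell cannot be told apart.

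AGMO was the member with the widest gap between the lines. In LSL hens from groups of 36 its lowest, median and highest values were 6.95, 7.59 and 8.35, and in LSL hens from groups of 54 they were 6.92, 7.72 and 7.95. In LB hens they were 8.32, 8.51 and 8.81 in groups of 36 and 7.89, 8.53 and 8.76 in groups of 54. The lines overlapped at their edges: 3 of 30 LSL hens reached into the LB range, the highest of them at 8.35 and the next at 8.03. On the other side, 6 of 30 LB hens lay inside the LSL range. The 2 lowest LB hens, at 7.89 and 8.14, both came from groups of 54. All 30 LB hens lay above the LSL median, and all 30 LSL hens lay below the LB median.

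The group means of AGMO were 7.58 ± 0.38 (SD, n = 16) in LSL_36, 7.65 ± 0.27 (SD, n = 14) in LSL_54, 8.46 ± 0.23 (SD, n = 16) in LB_54 and 8.51 ± 0.13 (SD, n = 14) in LB_36. In this order, the neighbours of 1 line differed by less than their SD, and the step from LSL_54 to LB_54 was larger than either SD. LSL hens were 0.87 (SE 0.0674) below LB hens, a 1.83-fold difference, and only 50 of 16317 rows had a larger absolute line difference. These values come from the contrast that chose AGMO and are given as a description. Layer line held 73.6% of the variance of AGMO over the 60 hens and group size 0.492%.

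**Figure D1:**
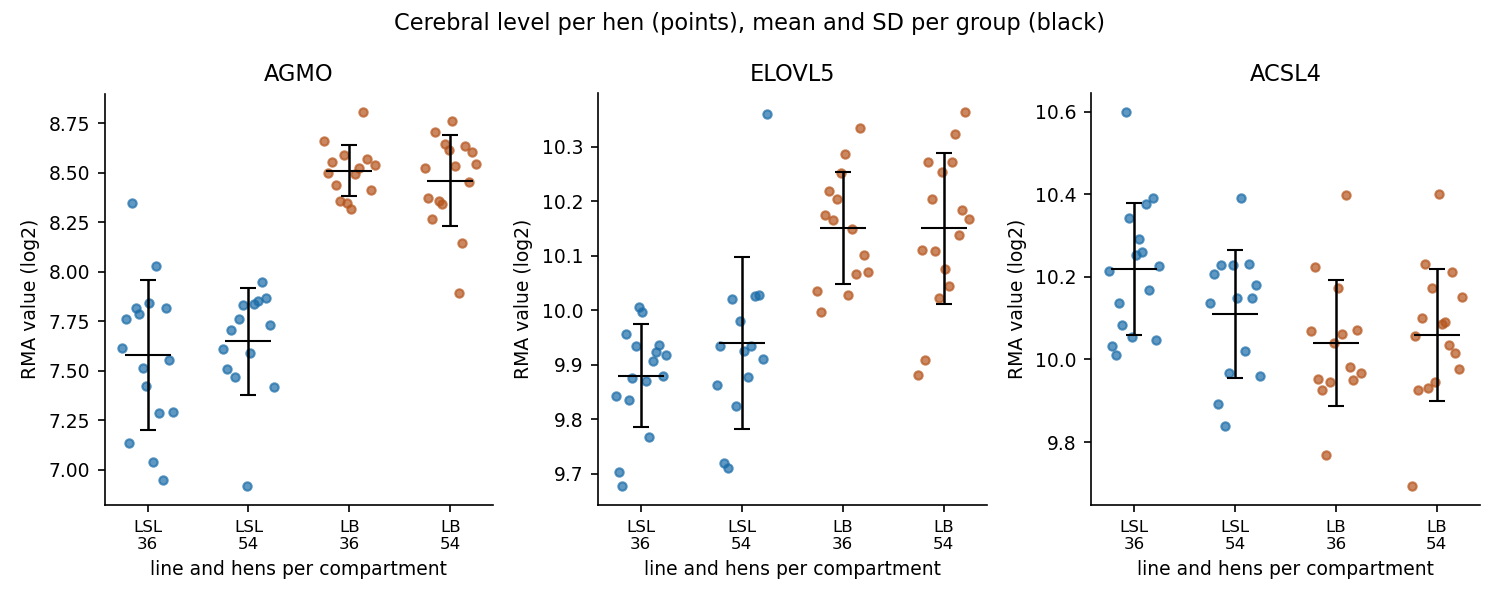
RMA values on the log2 scale of AGMO, ELOVL5 and ACSL4 in each of 60 hens (points), by line and number of hens in a compartment, with the mean and SD of each group in black. For AGMO the LSL means were 7.58 and 7.65 and the LB means 8.51 and 8.46, while the points of the 4 groups mixed for ACSL4. The vertical axes differ between panels and do not start at 0.

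ELOVL5 was also lower in LSL, by a smaller step. Its lowest, median and highest values were 9.68, 9.89 and 10.01 in LSL_36 and 9.71, 9.93 and 10.36 in LSL_54. In LB_36 they were 10.0, 10.16 and 10.33, and in LB_54 they were 9.88, 10.15 and 10.36. The ranges overlapped far more than for AGMO, with 17 LSL hens inside the LB range and 29 LB hens inside the LSL range, but 1 LSL hen set the upper end: hen 54, at 10.36, stood above the next LSL hen at 10.03. Of 30 hens per line, 28 LB hens lay above the LSL median and 29 LSL hens lay below the LB median.

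The group means of ELOVL5 ran from 9.88 ± 0.094 (SD, n = 16) in LSL_36 and 9.94 ± 0.158 (SD, n = 14) in LSL_54 to 10.15 ± 0.103 (SD, n = 14) in LB_36 and 10.15 ± 0.138 (SD, n = 16) in LB_54. Only the step between LSL_54 and the LB groups exceeded the SD of both groups it joined. LSL was below LB by 0.24 (SE 0.033), a 1.18-fold difference, which 1266 of 16317 rows exceeded in size. As for AGMO, this is the contrast used for the choice and carries no test. Layer line held 49.2% of the variance over hens and group size 1.64%.

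ACSL4 was the member with the smallest gap, and it ran the other way. Its lowest, median and highest values were 10.01, 10.22 and 10.6 in LSL_36 and 9.84, 10.15 and 10.39 in LSL_54. In LB_36 they were 9.77, 10.01 and 10.4, and in LB_54 they were 9.69, 10.07 and 10.4. The lines overlapped almost entirely, with 29 LSL hens inside the LB range and 28 LB hens inside the LSL range. Of 30 hens per line, 25 LB hens lay below the LSL median and 22 LSL hens lay above the LB median.

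The means of ACSL4 were 10.04 ± 0.152 (SD, n = 14) in LB_36, 10.06 ± 0.16 (SD, n = 16) in LB_54, 10.11 ± 0.155 (SD, n = 14) in LSL_54 and 10.22 ± 0.16 (SD, n = 16) in LSL_36. No step between neighbours in this order reached their SD. LSL hens were 0.12 (SE 0.0412) above LB hens, a 1.08-fold difference, and 4241 of 16317 rows had a larger absolute difference. Layer line held 12.3% of the variance and group size 1.98%. Across all tested rows, 22.8% differed between the lines at an adjusted p under 0.05 by limma, a share from which nothing is read about genes chosen on that contrast.

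The direction of each line difference was the same in both group sizes and in both sets of arrays. Both are splits of the contrast that chose the members, so this is a description. AGMO was lower in LSL by 0.93 in groups of 36 and by 0.82 in groups of 54 (SE 0.0965 each), and by 0.93 and 0.77 in the larger and the smaller set of arrays. For ELOVL5 the LSL deficit was 0.27 and 0.21 by group size and 0.23 and 0.25 by set. ACSL4 was 0.18 higher in LSL in groups of 36 and 0.05 higher in groups of 54 (SE 0.0577 each), and 0.12 and 0.13 higher by set.

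The second question of the design was whether the number of hens in a compartment changed expression, a contrast that was not used to choose the members. None of the 3 genes passed the test. Hens from groups of 54 minus hens from groups of 36 gave 0.071 for AGMO (95% confidence interval -0.188 to 0.331, limma adjusted p = 0.955), 0.044 for ELOVL5 (interval -0.045 to 0.134, adjusted p = 0.916) and -0.047 for ACSL4 (interval -0.134 to 0.04, adjusted p = 0.91). The farther ends of these intervals correspond to a 1.26-fold change for AGMO and a 1.1-fold change for the other two. Across all 16317 rows 0.0% passed in this comparison (0 by limma and 0 by the methods' t-test), while without adjustment 888 rows had a p under 0.05 by limma and 898 by the t-test.

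With layer line as a covariate, which takes the line differences out of the residual spread, the interval for AGMO narrowed to between -0.123 and 0.149 around 0.013, and the differences were 0.028 for ELOVL5 and -0.039 for ACSL4 (limma adjusted p = 0.986, 0.915 and 0.902). Within LSL the 3 differences were 0.071, 0.059 and -0.105, and within LB they were -0.044, -0.003 and 0.026. The LSL value of ACSL4 was the farthest from 0 in units of its error, with an interval of -0.22 to 0.011, an unadjusted p of 0.074 and a limma adjusted p of 0.999. In both within-line tests 0.0% of rows passed (0 rows each by limma), against 539 rows in LSL and 1278 in LB before adjustment.

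Nor did the line difference itself shift detectably with group size. The effect of group size in LSL minus that in LB was 0.115 for AGMO (interval -0.158 to 0.388), 0.062 for ELOVL5 (interval -0.07 to 0.195) and -0.131 for ACSL4 (interval -0.294 to 0.032), with a limma adjusted p of 1.0 for each. For this interaction 0.0% of rows passed (0 by limma), against 802 before adjustment.

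**Figure D2:**
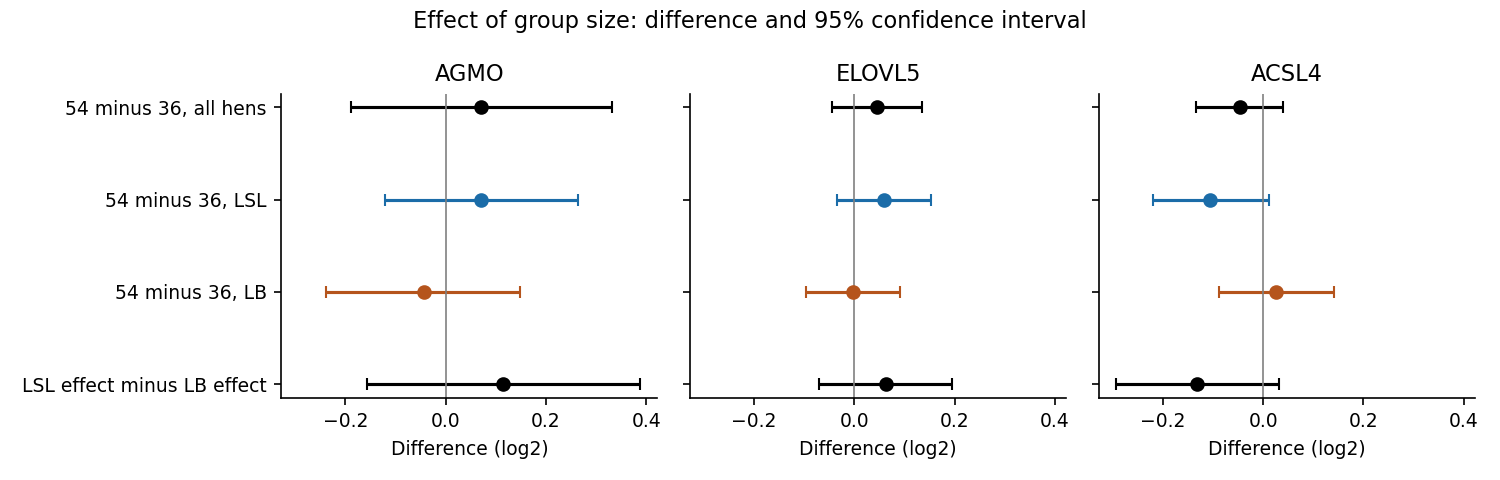
Differences on the log2 scale with 95% confidence intervals for AGMO, ELOVL5 and ACSL4: groups of 54 minus groups of 36 over all hens, within LSL and within LB, and the LSL effect minus the LB effect. All 12 intervals include 0. For AGMO the interval over all hens runs from -0.188 to 0.331.

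Individual hens varied more in AGMO than in the other two. The SD within groups was 0.269 for AGMO, larger than in 81.1% of the 16317 rows, against 0.126 for ELOVL5 and 0.157 for ACSL4, larger than in 16.0% and 33.3% of rows. The median over all rows was 0.184. In AGMO the scatter was on the LSL side: the mean absolute deviation from the group median was 0.248 in LSL and 0.136 in LB, and the largest deviation was 0.801 in LSL and 0.635 in LB. The difference of 0.112 (interval 0.023 to 0.201) had an unadjusted p of 0.0148 and did not pass after adjustment over all rows (limma adjusted p = 0.629), a test that 0.215% of rows passed.

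For ELOVL5 the mean absolute deviation was 0.086 in LSL and 0.0977 in LB, and for ACSL4 it was 0.122 in LSL and 0.114 in LB (limma adjusted p = 0.997 for both). No pair of members rose and fell together from hen to hen within a line. Over 30 hens, Pearson's r lay between -0.21 and 0.14 in the 6 relations and Spearman's rho between -0.16 and 0.16, with a lowest permutation p of 0.269 for r and an adjusted p of 0.963 for all 6. Without the 2 hens farthest from the median, r lay between -0.26 and 0.22. Within a single set of arrays r was less even: AGMO and ELOVL5 gave 0.65 among the 10 LSL hens of the smaller set and -0.09 among the 20 of the larger, and ELOVL5 and ACSL4 gave -0.48 among those 20 LSL hens.

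The rows most like each member from hen to hen were taken from 7596 named rows by Pearson's r over 60 hens after the group means were removed. They share arrays and tissue sample, and r is given as a description. For AGMO they were ARPC2, a subunit of the actin-branching Arp2/3 complex, at 0.50, MEOX2, a homeobox transcription factor, at 0.47, ZSWIM3 at 0.46, VPS37B, a subunit of the ESCRT-I sorting complex, at 0.46, and NAA50, an N-terminal acetyltransferase, at 0.45. Of these, MEOX2 came first, at 0.49, when the means of the 2 sets of arrays were removed as well. It was the only 1 of the 5 that also differed between the lines, where 22.8% of all 16317 rows differed.

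For ELOVL5 the likeness was closer. CSNK1A1, the alpha isoform of casein kinase 1, reached 0.71, PHYHIPL 0.69, the mitochondrial ADP/ATP carriers SLC25A4 and SLC25A6 0.65 and 0.63, and the magnesium transporter NIPA1 0.62. With the sets removed CSNK1A1 still stood first, at 0.66, while SLC25A6 dropped to place 21. SLC25A4 and NIPA1 also differed between the lines, lower in LSL by 0.22 and 0.24 (limma adjusted p over all rows = 0.00669 and 0.00144). For ACSL4 they were RNF152, a ubiquitin ligase, at 0.54, LRCH2 at 0.53, the receptor tyrosine kinase AXL at 0.51, ANKDD1A at 0.50 and NUFIP1 at 0.50, and only RNF152 kept its place, at 0.56, with the sets removed. AXL and ANKDD1A were lower in LSL by 0.28 and 0.22 (limma adjusted p = 1.46e-09 and 0.000139), whereas ACSL4 was higher.

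The other enzymes around the members were taken from 6 lists of 98 genes, of which 44 had a tested row. Of these 44, 2 were higher and 10 lower in LSL and 32 did not pass, with a median difference of 0.013. Over all 7337 genes 11.6% were higher and 13.2% lower, and the median was -0.001. The lists thus held a share of called genes, 27.3%, near that of all genes, 24.8%, and are described gene by gene. With the array sets as a block 17 of the 44 passed, 6 higher and 11 lower in LSL, where 2387 of all 7337 genes passed. With hen pairs in that model 16 passed, 6 higher and 10 lower, where 2111 of all 7337 genes passed. No listed gene passed the test for group size.

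Of 20 listed ether lipid genes, 10 had a tested row. AGMO had the largest line difference among them, but it was chosen on this contrast, so its rank carries no test. Of all 7337 genes 24.8% differed between the lines. Of the 9 other tested genes 1 passed without a block, TMEM86A, a lysoplasmalogenase that removes the vinyl ether chain from lysoplasmalogens: its LSL values had a median of 7.71 (7.27 to 8.15) and its LB values a median of 7.86 (7.46 to 8.14), so that it was lower in LSL by 0.13 (SE 0.0498, limma adjusted p = 0.0477), with wide overlap. GNPAT, which starts ether lipid synthesis in the peroxisome, differed by 0.01 (SE 0.039, limma adjusted p = 0.852). PLA2G7, a secreted phospholipase that inactivates platelet-activating factor, was at 0.11 (SE 0.0443, adjusted p = 0.0597). With the array sets as a block PLA2G7 and TMEM86A both passed (limma adjusted p = 0.00339 and 0.0298). With hen pairs as a block neither passed (adjusted p = 0.117 and 0.105), and with pairs and sets together both did (adjusted p = 0.00663 and 0.0465). LPCAT2, which makes platelet-activating factor, had means of 8.64 in LSL and 8.63 in LB.

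QDPR, the reductase that regenerates the cofactor of AGMO, was the only tested gene of the tetrahydrobiopterin list. It had 3 rows, all lower in LSL. The median of the rows ran from 7.47 to 8.59 around a median of 8.0 in LSL and from 7.89 to 8.63 around 8.41 in LB, a difference of -0.35 (SE 0.0684, limma adjusted p = 6.02e-05). The rows gave -0.36, -0.35 and -1.46. The row with the largest difference also had the widest spread in LSL, with an SD of 1.61 around a mean of 5.52, close to the expression limit of 5.085.

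Of 18 listed genes of fatty acid elongation and desaturation, 9 had a tested row, and ELOVL2, FADS1 and FADS2 had none. None of the 8 tested genes other than ELOVL5 passed without a block, in either direction, where 24.8% of all 7337 genes passed. With the array sets as a block, ELOVL4 and SCD5, a second stearoyl-CoA desaturase, passed as higher in LSL (limma adjusted p = 0.0124 and 0.0162). ELOVL4, the elongase of very long chains, was at 0.08 (SE 0.0345, limma adjusted p = 0.0928), HSD17B12, the ketoacyl-CoA reductase that works with the elongases, was at -0.07 (SE 0.0358, adjusted p = 0.167), and the stearoyl-CoA desaturase SCD, which varied most in this list, had a mean of 10.82 ± 0.37 (SD, n = 30) for the LSL hens and one of 10.8 ± 0.32 (SD, n = 30) for the LB hens.

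Around ACSL4, the enzymes that make and cleave acyl-CoA moved in both directions, 2 higher and 2 lower of 6. Of all 7337 genes 11.6% were higher and 13.2% lower. ACOT9, a mitochondrial acyl-CoA thioesterase, had a median of 9.77 in LSL (9.06 to 9.97) and 9.39 in LB (9.2 to 9.67) and was higher in LSL by 0.32 (SE 0.0423, limma adjusted p = 1.11e-08). SLC27A1, a fatty acid transport protein with acyl-CoA synthetase activity, had a median of 10.39 in LSL (10.2 to 10.59) and 10.55 in LB (10.33 to 10.79) and was lower in LSL by 0.17 (SE 0.0288, adjusted p = 2.23e-06). The related SLC27A4 was higher by 0.08 and the peroxisomal thioesterase ACOT8 lower by 0.09 (adjusted p = 0.0384 and 0.032), steps smaller than the SD of either line. SLC27A4 and ACOT8 lost their call with hen pairs as a block (limma adjusted p = 0.113 and 0.089).

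Of 17 listed genes that release, reacylate or oxidise arachidonate, 9 had a tested row. Of these 9, 4 were lower and none was higher in LSL, where 13.2% of all 7337 genes were lower and 11.6% higher. ALOX5AP, the protein that presents arachidonate to 5-lipoxygenase, had a median of 6.86 in LSL (6.05 to 7.43) and 7.14 in LB (6.65 to 8.08) and fell by 0.34 (SE 0.082, limma adjusted p = 0.0012). PTGS2, the inducible cyclooxygenase, was lower by 0.16, FAAH, which degrades anandamide, by 0.13 and DAGLA, which makes the endocannabinoid 2-arachidonoylglycerol, by 0.08 (adjusted p = 0.03, 0.0213 and 0.0245). PTGS2, FAAH and DAGLA lost their call with hen pairs as a block (limma adjusted p = 0.0885, 0.0682 and 0.0637). ALOX5AP is also a gene of microglia and other myeloid cells: none of the 4 tested microglia markers passed, their summed linear level was 704 to 1055 in LSL and 744 to 1042 in LB, and CSF1R was at -0.15 in the same direction (adjusted p = 0.0554, and 0.0423 with the array sets as a block, where it passed). The part of these cells in the ALOX5AP difference was not tested.

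Of 11 genes of de novo fatty acid synthesis and its control, the nuclear receptors NR1H3 and PPARA were lower in LSL by 0.10 and 0.14 (limma adjusted p = 0.0142 and 0.0355), where 13.2% of all 7337 genes were lower. The other 9, among them ACLY, SREBF2 and INSIG1, did not pass, although OXSM and INSIG1 did with the array sets as a block (adjusted p = 0.0131 and 0.0404). Hens came in pairs of consecutive numbers that shared line, group size and set of arrays. With these 30 pairs as a random block, 5 of the 12 called genes kept their call: ACOT9, SLC27A1, ALOX5AP, NR1H3 and QDPR. These were 5 of the 44 listed genes, where 1289 of all 7337 genes passed in that model. With hen pairs and the array sets together, a model added after seeing the data, all 12 passed (limma adjusted p at most 0.047). In that model 2111 of all 7337 genes passed. In the smaller set of arrays alone 3 of the 44 genes passed, and 660 of all 7337.

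**Figure D3:**
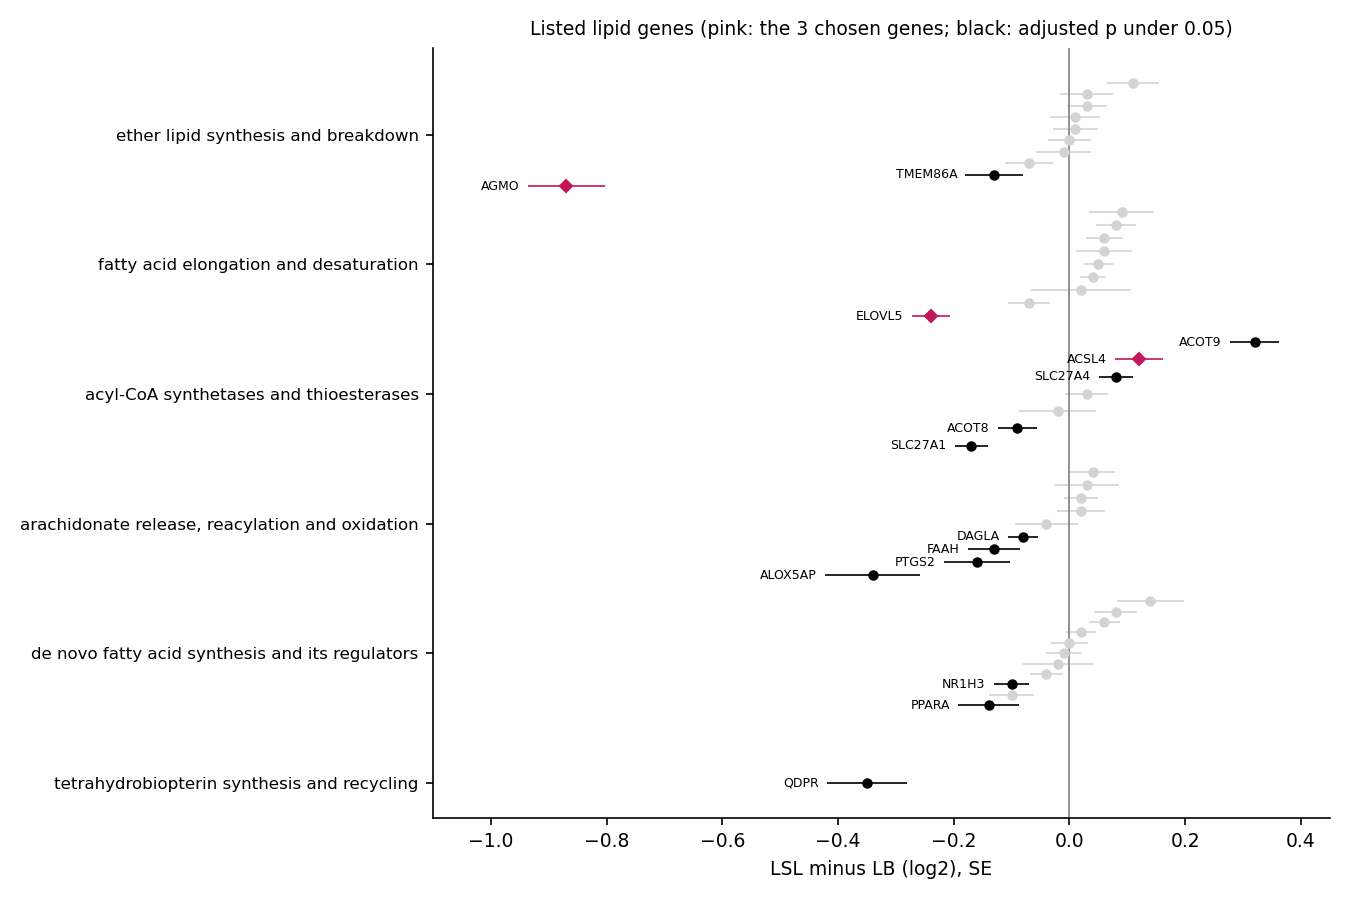
Difference LSL minus LB on the log2 scale, with its SE, for the tested genes of 6 lipid lists. AGMO at -0.87, ELOVL5 at -0.24 and ACSL4 at 0.12 (pink diamonds, chosen on this contrast) stand among 44 other genes, of which 12 passed the test (black, named) and 32 did not (grey).

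In the gene table of the GRCg7b assembly AGMO lies on chromosome 2, ELOVL5 on chromosome 3 and ACSL4 on chromosome 4. The 3 nearest tested genes on each side were compared between the lines, the contrast that chose the members. The neighbours were taken by position, but a row named only by the study's list of differing probe sets could enter through this contrast. Which neighbours, if any, were named in that way is not given here. Around AGMO, 3 of 6 neighbours were lower in LSL and none was higher, where 13.2% of all 7337 genes were lower and 11.6% higher. MEOX2, the next gene, had a lowest, median and highest value of 6.14, 6.86 and 7.75 in LSL and 7.06, 7.63 and 8.19 in LB, and was lower in LSL by 0.80 (SE 0.0923, limma adjusted p = 1.82e-10). SCIN, an actin-severing protein that lies 4 genes away on the other side, had values of 5.78, 6.63 and 8.06 in LSL and 6.64, 7.47 and 8.37 in LB, and was lower by 0.71 (SE 0.122, adjusted p = 4.68e-06).

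ISPD, an enzyme of dystroglycan glycosylation 2 genes from AGMO, was lower by 0.27 (SE 0.0668, limma adjusted p = 0.00139). The remaining differences were small: SOSTDC1 at -0.07, LOC395159 at -0.09 and TMEM106B at -0.09 did not pass (adjusted p = 0.622, 0.201 and 0.135). SOSTDC1 lies 3 genes from AGMO, on the side of MEOX2, and SCIN 4 genes away on the other side. SOSTDC1 had low values, with means of 5.69 in LSL and 5.76 in LB against an expression limit of 5.085. Genes were counted in order, without distances, and the part of position in these differences was not tested. SCIN and ISPD did not pass in the smaller set of arrays alone (adjusted p = 0.0558 and 0.243), where their differences were -0.59 and -0.24.

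Around ELOVL5 the neighbours went both ways, where 13.2% of all 7337 genes were lower in LSL and 11.6% higher. FBXO9, an F-box protein of a ubiquitin ligase 2 genes away, had values of 8.97, 9.4 and 9.61 in LSL and 9.28, 9.68 and 9.85 in LB and was lower by 0.33 (SE 0.0435, limma adjusted p = 1.53e-08). GCLC, the catalytic subunit of the enzyme that starts glutathione synthesis and the gene next to ELOVL5, was higher by 0.06 (SE 0.0244, adjusted p = 0.0462), a call that was lost with hen pairs as a block (adjusted p = 0.105). The other 4 neighbours, LRRC1, MLIP, LOC396380 and GSTA3, did not pass.

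Around ACSL4 the genes closest to it did not differ detectably: TMEM164, the next gene, which in human cells transfers arachidonate to ether phospholipids, was at 0.07 (SE 0.0521, limma adjusted p = 0.325), AMMECR1 at 0.01 and NXT2 within 0.01 of 0. CHRDL1, an antagonist of bone morphogenetic proteins, was higher in LSL by 0.26 (SE 0.0643, adjusted p = 0.00139), and COL4A6, a basement membrane collagen, was lower by 0.16 (SE 0.041, adjusted p = 0.00212). The means of COL4A6, 5.28 in LSL and 5.44 in LB, were close to the expression limit of 5.085. Of all 7337 genes 11.6% were higher in LSL and 13.2% lower. IRS4, at 0.10, did not pass (adjusted p = 0.179) but passed with the sets of arrays in the model and in the larger set alone (adjusted p = 0.0083 and 0.0282).

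**Figure D4:**
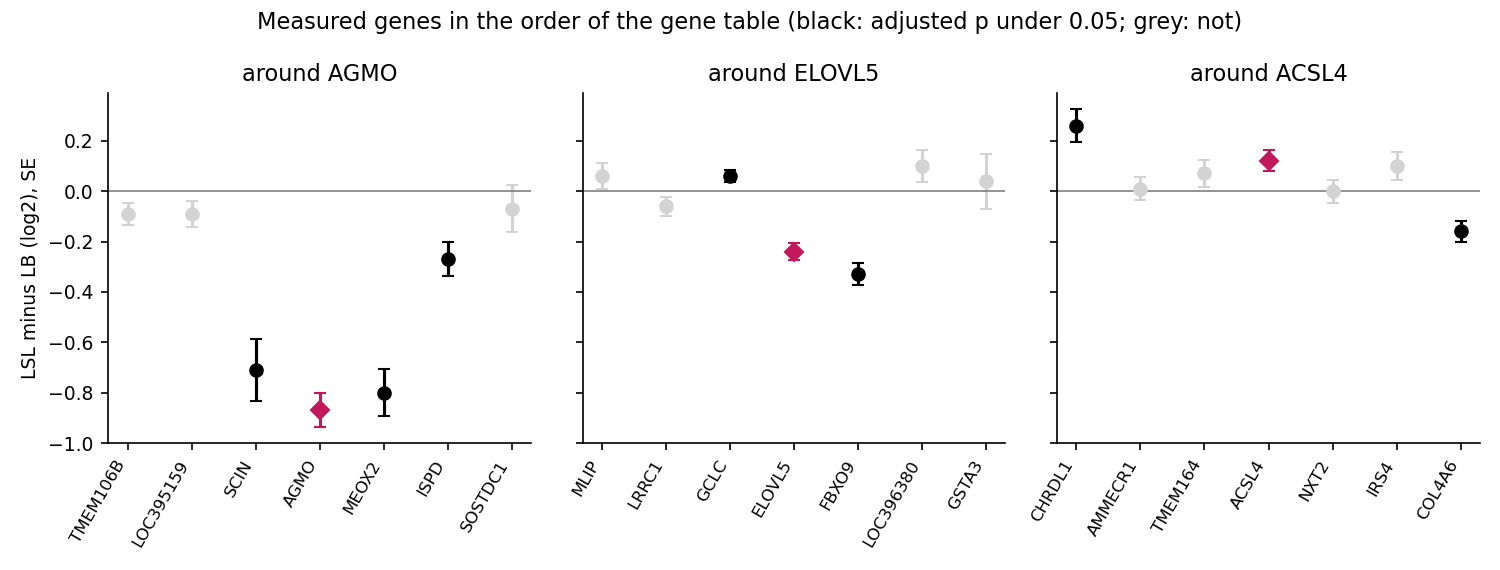
Difference LSL minus LB on the log2 scale, with its SE, for the 3 nearest tested genes on each side of AGMO, ELOVL5 and ACSL4 (pink diamonds) in the order of the gene table, without distances. Among the tested genes, SCIN, AGMO, MEOX2 and ISPD form a run of lower values in LSL, from -0.71 over -0.87 and -0.80 to -0.27. AGMO was chosen on this contrast, and genes without a tested row lie between SCIN and AGMO. TMEM164, AMMECR1 and NXT2 beside ACSL4 lie within 0.07 of 0, with CHRDL1 at 0.26 and COL4A6 at -0.16 farther out.

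The correlation of each member with its 6 neighbours over the 30 hens of a line was added after these differences had been seen, in 36 relations with permutation tests. The permutations treated hens as independent and took no account of hen pairs, so that their p-values may be too small. AGMO and MEOX2 were correlated in LSL, with r of 0.66 and rho of 0.60 (adjusted p = 0.00324 and 0.00744), r of 0.64 without the 2 hens farthest from the median of AGMO, and 0.72 and 0.57 within the larger and the smaller set of arrays. In LB r was -0.05 and rho -0.02 (adjusted p = 0.928 and 0.949), with 0.05 and -0.86 within the sets, the second over 8 hens. The difference between the lines in this correlation was not tested, and AGMO varied less in LB. AGMO and SCIN, which differed between the lines by a similar amount, gave r of -0.07 in LSL and 0.37 in LB (adjusted p = 0.928 and 0.185).

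Among the others, ACSL4 and NXT2 gave r of 0.55 and rho of 0.62 in LSL (adjusted p = 0.0191 and 0.00612), 0.52 without the 2 farthest hens, and 0.62 and 0.44 within the sets. ELOVL5 and GCLC gave r of 0.49 and rho of 0.52 in LSL (adjusted p = 0.0436 and 0.0295), 0.64 without the 2 farthest hens, and 0.64 and 0.43 within the sets, so that GCLC followed ELOVL5 from hen to hen in LSL while its line difference had the opposite sign. ELOVL5 and FBXO9 gave r of 0.54 and rho of 0.64 in LSL (adjusted p = 0.0173 and 0.00612), with r of 0.58 without the 2 farthest hens. Within the larger and the smaller set r was lower, at 0.31 and 0.18, and was not tested there. None of these 3 relations passed in LB, where r was 0.25, 0.15 and 0.45 (adjusted p = 0.486, 0.766 and 0.0706).

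**Figure D5:**
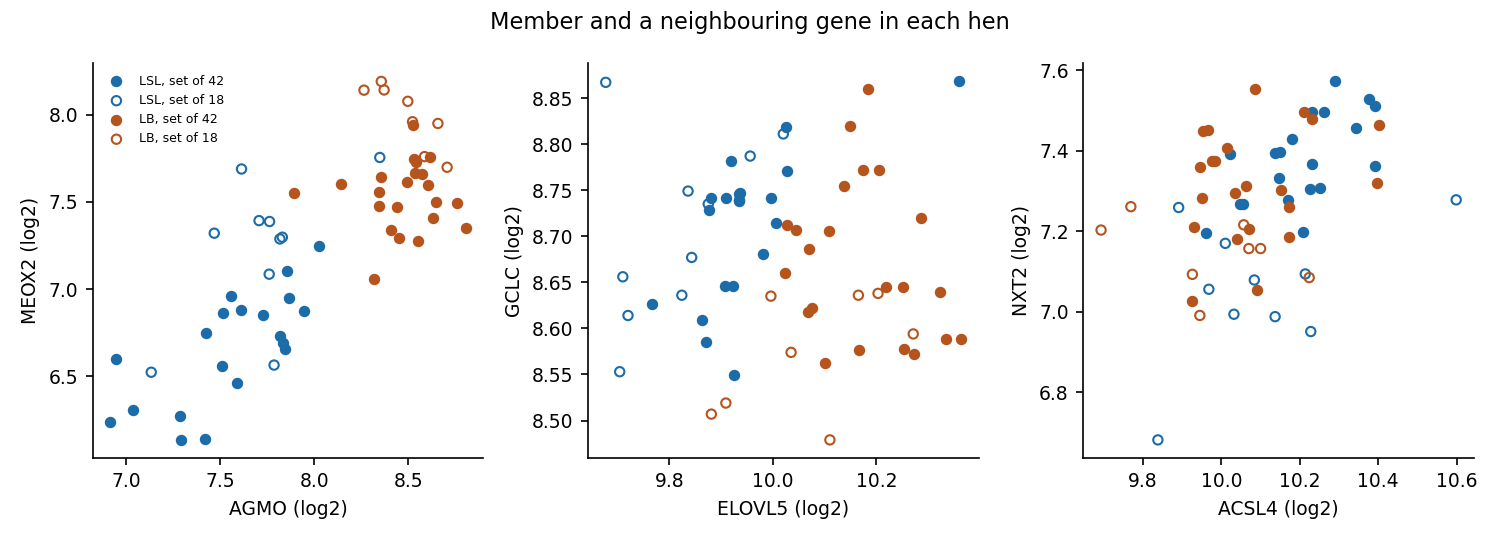
Values on the log2 scale of AGMO and MEOX2, ELOVL5 and GCLC, and ACSL4 and NXT2 in each hen, with LSL in blue and LB in brown, filled for the set of 42 arrays and open for the set of 18. AGMO and MEOX2 rise together among LSL hens (r = 0.66) and not among LB hens (r = -0.05).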

How the data were processed

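The authors scanned customized Affymetrix ChiGene-1_0-st arrays, 1 per hen, and deposited log2 values after RMA with background correction and quantile normalization. A second deposited table held the same values over 20396 rows. The genome build behind the arrays is not given in the sources used here. Of 20399 rows, 3 controls or rows without an identifier were left out, and the tests used the 16317 rows with a mean log2 value of at least 5.085, the 20th percentile. Of these, 7453 took a name from the platform annotation and 144 from the study's supplementary list, while 8639 without a name and 81 with several stayed in the tests. The supplementary list holds probe sets that differed between the lines by a doubling or more. Rows it named thus entered the gene counts, and could enter the lists and neighbours, through that contrast. All columns matched a hen.

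Differences were fitted with limma 3.58.1 in R 4.3.3, checked on simulated data, with Benjamini-Hochberg adjustment over all rows (lists and neighbours: over 7337 genes, as the median of a gene's rows) and a threshold of 0.05. Line and group size were tested separately, as in the study's methods. The test of spread compared absolute deviations from the median of line and group size. Correlations used two-sided permutation tests with 100000 resamples (SciPy 1.17.1). The alternatives were the sets of arrays as a block or alone, hen pairs as a random block, covariates, the filter, the second table and the methods' t-test. Hen pairs together with the sets, correlations within a set and correlations with neighbours were added after seeing the data.

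The members, lists, tests and alternatives were chosen with earlier results of these data known. Genes were named by rule: the members, called list genes with examples of the others, the 3 nearest tested genes on each side and the 5 rows most like each member. The number of arrays limits the precision.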

Additional observations from a re-analysis of the deposited data

How the results depend on the processing

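The members kept the direction of their line difference in every alternative run. These runs reuse the same hens and the contrast that chose the members, so the kept direction is a description and no test. No member passed a test of group size, interaction or spread in any alternative. The smaller set of arrays alone, with fewer hens, moved the counts of rows called: 1184 for layer line, 2 for group size, 10 for group size within LB, 1 for the interaction, 5 for the spread, 3 of the 44 listed genes and 660 of all 7337 genes. The count for the spread was 12 with hen pairs as a block and 58 with deviations taken within sets. With hen pairs as a block 5 of the 44 listed genes passed for layer line, and 1289 of all 7337 genes.

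The sign of a difference turned only where it did not pass the test. For group size these were AGMO within LSL at -0.051 and ACSL4 within LB at -0.058 (smaller set) and ELOVL5 within LB at 0.012 (larger set). The spread of ACSL4 turned to -0.012 (larger set) and -0.011 (deviations within sets). Of the neighbours, GSTA3 turned to -0.223 (smaller set), AMMECR1 to -0.015 (sets as a block, with or without hen pairs), -0.018 (larger set) and -0.008 (smaller set), and NXT2 to 0.014 (sets as a block, with or without hen pairs) and 0.057 (larger set). The call of GCLC was lost without the filter, with group size as a covariate, with hen pairs and in either set alone (adjusted p from 0.051 to 0.333), and that of CHRDL1 in the smaller set (0.353). With sets in the model TMEM106B passed at -0.068 (adjusted p = 0.015). The cause was not tested in any of these.

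Correlations between members varied with the sets, a difference that was not tested. AGMO and ELOVL5 in LSL gave 0.09 with set means removed and 0.65 in the smaller set. In LB they gave -0.43 in the larger set (permutation p = 0.0418, unadjusted) and 0.41 in the smaller. AGMO and ACSL4 in LSL gave 0.08 with set means removed, 0.03 in the larger and 0.06 in the smaller set. ELOVL5 and ACSL4 in LSL gave 0.03 with group means removed, -0.48 in the larger set (permutation p = 0.0279, unadjusted) and 0.04 in the smaller, and in LB -0.09 with set means removed and -0.25 in the larger set.

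No paired analysis was possible because each hen carries a number of its own and no number is shared between groups. No source records a batch, and the sets rest on the values themselves. The labels do not say whether the hens of a pair shared a compartment. Each member rests on 1 row, which merges 16 probe sets for AGMO, 8 for ELOVL5 and 16 for ACSL4. The deposited values do not separate them, so that probe sets of the same gene could not be compared. The study's list of probe sets that differed between the lines by a doubling or more holds 3 from the AGMO row, 1 from the ACSL4 row and 0 from the ELOVL5 row. A probe set with a smaller difference is not in that list, whether or not it passed the study's test.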
